A study of Equus caballus with 25 samples.

Results

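PROM1 and PTN are 2 of the 7238 transcripts represented on an equine immune and mucosal microarray, and both were lower in bronchoalveolar lavage (BAL) cells of horses with asthma. They were chosen by their identifiers, ENSECAT00000014789 for PROM1 and ENSECAT00000000474 for PTN, because earlier analyses of these arrays had shown them among the transcripts that fell in the diseased horses. The comparisons of each diseased group with the Control horses therefore chose the members, and those values are given below as a description, with no test. The relations between horses inside a group were not used for the choice, but many transcripts that fell in RAO also followed the members inside groups. The comparison of the diseased groups with each other was not used directly. It follows, however, from the comparisons with Control, so it is not independent of the choice.

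PROM1 encodes prominin-1 (CD133), a cholesterol-binding glycoprotein that spans the membrane several times and sits in the microvilli, cilia and other protrusions of the apical surface of epithelial cells. It is also known as a marker of stem and progenitor cells. PTN encodes pleiotrophin, a secreted growth factor that binds heparin and the sugar chains of proteoglycans. Its best known receptor is the receptor-type protein tyrosine phosphatase PTPRZ1, and its closest relative is midkine. Most cells of a lavage sample are leukocytes, in health mainly macrophages, with neutrophils in neutrophilic inflammation, and ciliated and other epithelial cells are shed into it in small numbers.

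RNA of the cells in BAL fluid was measured in 25 horses, 1 array a horse: 7 Control horses, 10 horses labelled IAD (inflammatory airway disease, called mild equine asthma or MEA in the study) and 8 labelled RAO (recurrent airway obstruction, called severe equine asthma or SEA). According to the study, Control horses were clinically healthy standardbreds, while most IAD and RAO horses were saddle horses, and RAO horses were older than the others. Diseased horses were sampled when they were presented as clinical cases, the IAD horses all had neutrophilic inflammation and were free of mast cells and of inflammation of the eosinophilic type, and all horses were free of bacteria on culture. Breed, age and disease cannot be told apart for RAO against Control. The same holds for breed and disease in IAD against Control, and for age and disease in RAO against IAD. All horses were lavaged through an endoscope under sedation, with saline and lidocaine.

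Each transcript was measured by 1 probe of 60 bases, printed as 2 spots on every array. The probes of the members are shown because every value below is the brightness of RNA bound to these letters, and the files name no genome position for them. They are written from the first to the last base of the deposited sequence, with no part marked.
PROM1 (ENSECAT00000014789): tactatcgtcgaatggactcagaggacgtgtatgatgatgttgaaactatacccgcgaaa
PTN (ENSECAT00000000474): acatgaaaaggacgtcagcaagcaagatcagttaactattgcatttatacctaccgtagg
G and C made up 43.3% of the PROM1 probe and 40% of the PTN probe, against a median of 45% over all probes. No other probe had either sequence. The symbols come from the study's tables, and 1684 of the 4930 transcripts tested (34.2%) had one. All of these were transcripts that the study had called changed in these horses.

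Levels are given as normalized intensity on the log2 scale (cyclic loess, mean of the 2 spots), on which 1 unit is a 2-fold change in brightness. The arrays were spread over 4 slides, and between 58.2% and 90.8% of the spots of an array were well above background. Macrophage and neutrophil transcripts were present throughout. The summed level of the 5 macrophage transcripts ran from 14.17 to 15.78 in Control, from 14.73 to 16.41 in IAD and from 15.19 to 16.21 in RAO horses. That of the 7 neutrophil transcripts ran from 11.11 to 14.85 in Control, from 11.90 to 18.05 in IAD and from 11.90 to 17.67 in RAO horses. The precision is limited by the number of arrays, and in RNA of mixed cells, fewer cells of a type and less RNA in each cell cannot be told apart.

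In Control horses PROM1 was a bright transcript. Its level ran from 10.96 in Control 7 over a median of 12.19 to 13.67 in Control 6, with a mean of 12.11 ± 0.88 (SD, n = 7). In IAD horses it ran from 8.45 in IAD 2 over a median of 9.91 to 11.69 in IAD 7, with a mean of 9.81 ± 0.95 (SD, n = 10). Of the 10 IAD horses, 9 were below the lowest Control horse, and IAD 7 was the exception. In RAO horses the level ran from 5.89 in RAO 1 over a median of 10.06 to 12.05 in RAO 7, with a mean of 9.68 ± 2.04 (SD, n = 8). The RAO horses were the most uneven group. RAO 2, RAO 5 and RAO 7, at 10.99, 11.45 and 12.05, lay inside the range of the Control horses, and the other 5 lay below it.

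PTN was dimmer. In Control horses its level ran from 6.83 in Control 5 over a median of 7.12 to 9.49 in Control 1, with a mean of 7.57 ± 0.96 (SD, n = 7). In IAD horses it ran from 3.99 in IAD 2 over a median of 6.42 to 8.04 in IAD 7, with a mean of 6.39 ± 1.24 (SD, n = 10). Here 6 of the 10 horses were below the lowest Control horse, so that the groups overlapped widely. In RAO horses the level ran from 0.61 in RAO 1 over a median of 5.09 to 5.96 in RAO 4, with a mean of 4.44 ± 1.89 (SD, n = 8). All 8 RAO horses were below the lowest Control horse. Both PTN spots of RAO 1, and 1 of the 2 spots in RAO 8 and in IAD 2, were not well above background, and all other spots of both members were.

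**Figure D1:**
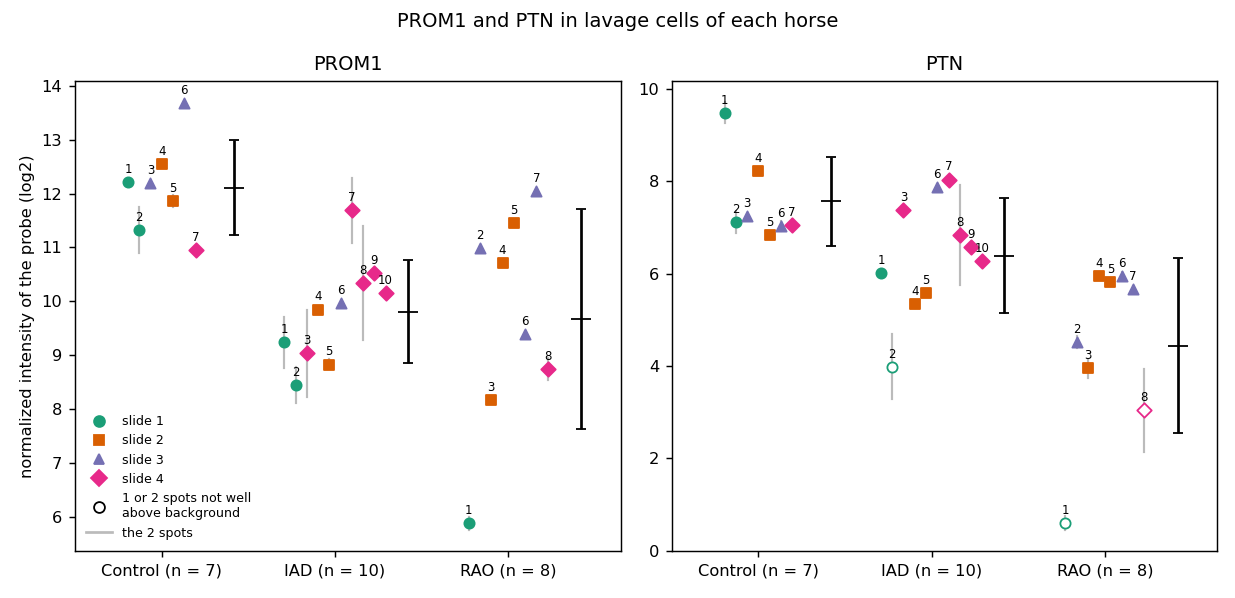
Normalized intensity (log2) of PROM1 (left) and PTN (right) in each horse, numbered by its label, with the slide given by colour and shape, grey lines joining the 2 spots, open symbols for arrays with a spot not well above background, and bars for the group mean ± SD; the vertical axes of the panels differ. PROM1 lies below the Control range in 9 of 10 IAD horses and 5 of 8 RAO horses, PTN in 6 of 10 and 8 of 8.

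In the comparison of IAD with Control horses, PROM1 was 2.30 lower on the log2 scale (SE 0.42), a 4.92-fold lower intensity, with a 95% interval of the log2 difference from -3.18 to -1.41. Of all 4930 transcripts tested, only 2 were further below Control in IAD. PTN was 1.18 lower (SE 0.51, 2.27-fold, interval -2.25 to -0.11), and 191 transcripts were further below Control. As a background, 321 of 4930 transcripts (6.51%) were called lower in IAD and 159 (3.23%) higher by limma at an adjusted p under 0.1 and a fold of at least 1.5. PROM1 was among those called and PTN was not, but this comparison chose the members, so that the calls are no evidence for them. Groups that did not overlap, with all IAD horses below all Control horses, were seen for 11 transcripts (0.223%), neither member among them.

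In the comparison of RAO with Control horses, the order was turned. PTN was 3.13 lower on the log2 scale (SE 0.72), an 8.77-fold lower intensity, with an interval from -4.65 to -1.61, and only 1 transcript was further below Control. PROM1 was 2.43 lower (SE 0.76, 5.39-fold, interval -4.03 to -0.83), and 48 transcripts were further below. Here 818 of 4930 transcripts (16.6%) were called lower and 783 (15.9%) higher, and both members were among those called lower. PTN was 1 of 62 transcripts (1.26%) whose RAO horses were all below the Control horses. These counts chose the members and are no evidence for them. Without RAO 1, the lowest horse for both, the differences were -1.89 for PROM1 and -2.59 for PTN. The normexp background correction starts from the mean and background signals and adds an offset to every spot, which compresses dim signals most. With it, PTN was 1.32 lower in RAO and 0.59 lower in IAD, while PROM1 was 2.27 and 2.38 lower.

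The slides held more than 1 group each, so both members were also compared within slides. PROM1 was 2.92, 2.85 and 2.96 lower in IAD than in Control horses on slides 1, 2 and 3, but 0.61 lower on slide 4, which carried 5 IAD horses and Control 7. PTN was 3.31 and 2.06 lower in IAD on slides 1 and 2. On slide 3 it was 0.73 higher in the 1 IAD horse than in the 2 Control horses, and on slide 4 it differed by -0.04. In RAO both members were lower than in Control horses on each of the 4 slides, by 2.08 to 5.88 for PROM1 and by 1.76 to 7.70 for PTN. With the slide as a block the IAD differences were -2.36 for PROM1 and -1.40 for PTN, and the RAO differences -2.82 and -3.36.

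The repeated spots show how much of the spread lay within an array. The spots of PROM1 differed by a median of 0.10 on the log2 scale and those of PTN by 0.17, against 0.16 over all tested transcripts. In IAD horses, however, the PROM1 spots differed by a median of 0.44 and by as much as 2.12 in IAD 8, where the PTN spots differed by 2.18. PROM1 was 2.68 lower in IAD than in Control horses by the first spot alone and 1.91 lower by the second, a reading of each spot by itself that was added after seeing the data. Between horses both members varied more than most transcripts. In RAO horses, 73 of the 4930 tested transcripts had a larger SD than PROM1 and 117 a larger SD than PTN.

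The diseased groups were then compared with each other. The choice of the members did not use this comparison directly, but it follows from those with Control and is not independent of the choice. PROM1 had nearly the same mean in both, 9.68 in RAO and 9.81 in IAD horses, a difference of -0.13 (SE 0.67, limma adjusted p = 0.928, 95% interval -1.52 to 1.26). PTN was 1.95 lower in RAO than in IAD horses (SE 0.68, 3.86-fold, interval -3.37 to -0.53), and 3 of 8 RAO horses were below the lowest IAD horse. The limma adjusted p over all transcripts was 0.141, so PTN did not pass the threshold, although only 6 of the 4930 transcripts were further below IAD in RAO. At this threshold 101 transcripts (2.05%) passed in either direction. In 1 fit over all 25 arrays PTN passed with an adjusted p of 0.0927. Leaving out a single horse gave differences of -2.22 to -1.40 for PTN, with adjusted p from 0.11 to 0.233. The order of the levels was thus Control above IAD and RAO for PROM1, with no difference between the last 2 beyond the spread. For PTN it was Control, IAD, RAO, with neighbouring groups that overlapped.

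Whether the members differed unequally between RAO and IAD was then described, in a comparison chosen after these values had been seen. PROM1 and PTN had also been chosen for their falls against Control. The p-values of this comparison are therefore no independent evidence. The log2 level of PTN minus that of PROM1 was taken in each horse. The size of this value has no meaning between different probes, but its difference between groups shows whether the transcripts differed unequally. It had a mean of -3.42 ± 0.93 (SD, n = 10) in IAD, -5.24 ± 1.05 (SD, n = 8) in RAO and -4.53 ± 1.2 (SD, n = 7) in Control horses. It was 1.82 lower in RAO than in IAD horses (exact permutation test over the 18 horses, two-sided, p = 0.00139). Of the 8 RAO horses, 6 were below the lowest IAD horse and 7 below the IAD median. It was lower in RAO on each of the 4 slides, by 1.44, 1, 3.33 and 2.38, and by 1.92 with labels exchanged only within slides (exact permutation test, two-sided, p = 0.00278). Without RAO 1 the difference was -1.81. With the normexp correction it was -0.85 and did not pass (exact permutation test, p = 0.121).

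**Figure D2:**
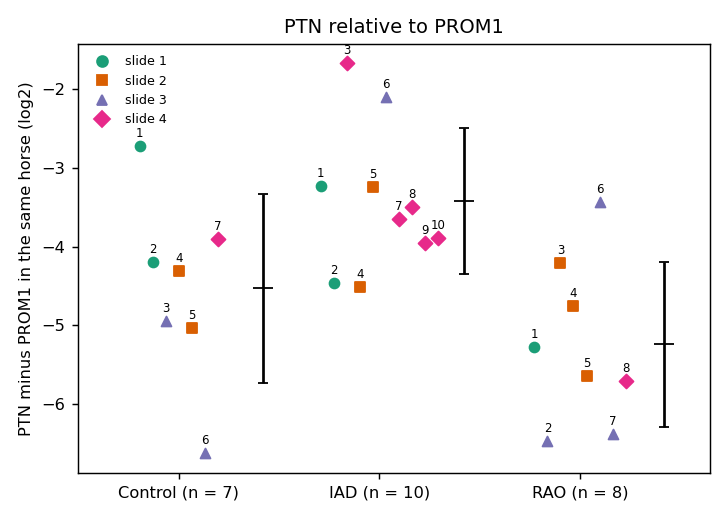
Log2 PTN minus log2 PROM1 in each horse, numbered by its label, with the slide by colour and shape and the group mean ± SD as bars. The mean is -3.42 in IAD and -5.24 in RAO horses, and 6 of 8 RAO horses lie below the lowest IAD horse.

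Whether both transcripts followed the same horses was examined inside groups. The choice of members did not use these relations, but it was not neutral to them. In the fit described below, 449 of the 818 transcripts called lower in RAO followed PROM1, and 426 followed PTN. Over all tested transcripts the shares were 10.6% and 11.2%. The p-values below are therefore no independent evidence of a tie particular to these 2 members. Over the 25 horses, after the group means had been removed, PROM1 and PTN rose and fell together with Pearson r = 0.72 (permutation test within groups, two-sided, p = 0.00073) and Spearman rho = 0.64 (p = 0.00172, permutation test). In 19 of the 25 horses both were on the same side of their group mean. RAO 1 was the lowest RAO horse for both, IAD 2 the lowest and IAD 7 the highest IAD horse for both. Without RAO 1 and RAO 7, the horses farthest out in PROM1, r was 0.54. With slide means removed as well, r was 0.65 (permutation test, p = 0.00126).

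The groups taken singly were less even. The relation was computed in each of the 3 groups, and p was adjusted over them. In RAO horses r was 0.86 (exact permutation test, p = 0.00766, adjusted p = 0.023) and rho 0.60 (exact permutation test, adjusted p = 0.198). Without RAO 1 r was 0.65 (exact permutation test, adjusted p = 0.184), and without RAO 1 and RAO 7 it was 0.62 (exact permutation test, p = 0.165). In IAD horses r was 0.67 (permutation test, p = 0.0334, adjusted p = 0.0501) and rho 0.65 (permutation test, adjusted p = 0.145). Without IAD 2 and IAD 7 r was 0.21 (exact permutation test, p = 0.605), and without either of them alone it was 0.52 and 0.54. The horses left out were those farthest out in PROM1, which narrows its range and can by itself lower r. These values therefore do not show which horses the relations rested on. In Control horses r was 0.15 (exact permutation test, p = 0.709) and rho 0.25 (exact permutation test, p = 0.595). Without Control 6 and Control 7 r was 0.54 in the 5 horses left (exact permutation test, p = 0.392). Control 6 had the highest PROM1 level of all horses and a PTN level of 7.04, below the Control mean. Differences between the groups in r were not tested.

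**Figure D3:**
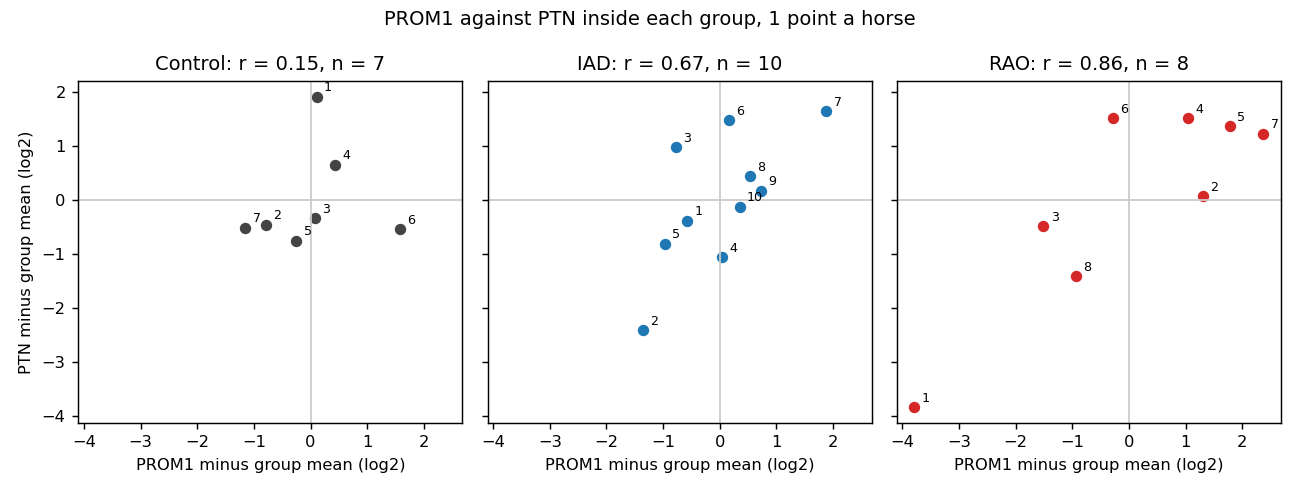
PROM1 (horizontal) against PTN (vertical), both as log2 level minus the mean of the group, in Control, IAD and RAO horses, 1 numbered point a horse. Pearson r is 0.15, 0.67 and 0.86, and RAO 1 lies far from the other RAO horses in both directions.

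Every other transcript was then fitted on group plus the group-centred level of each member (limma, 25 arrays, adjusted p under 0.05). In this fit 524 of 4929 transcripts (10.6%) followed PROM1 upward and 85 (1.72%) ran against it. PTN was followed by 552 (11.2%) and opposed by 322 (6.53%). The lists shared 449 transcripts that followed both, which is 85.7% of those following PROM1 and 81.3% of those following PTN. The count for PTN depended on RAO 1, without which 575 in place of 874 transcripts passed in either direction. PTN itself ranked as number 248 among the 4929 transcripts by inside-group r with PROM1, and PROM1 as number 207 with PTN.

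The transcripts most like PROM1 inside groups included several parts of the motile cilium. Their values are Pearson r over the 25 group-centred horses, given as a description, and each transcript shares the array, the slide and its background with the member. The highest were TMC5, a transmembrane channel-like protein, at 0.94, AK7, an adenylate kinase of motile cilia, at 0.94, and TOX3, a high-mobility-group protein, at 0.93. CALML4, a calmodulin-like protein, the glycosyltransferase GALNTL4 and MLF1 followed at 0.93 each. Next came C20orf85, SPAG6, a protein of the central apparatus of the cilium, and F3 (tissue factor, which starts coagulation), each at 0.92, and TEKT1, a tektin of ciliary microtubules, at 0.91. All 10 had an r of at least 0.65 in each group alone, and of 0.86 to 0.90 without RAO 1. The means of all 10 were also below Control in both diseased groups, by 1.26 to 1.94 in IAD and by 2.21 to 2.58 in RAO.

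None of the 10 transcripts most like PTN was among the 10 highest for PROM1, although most of the transcripts that followed one member also followed the other. C2orf77 and ISL1, a homeobox transcription factor, led at 0.87 each, followed by ENSECAT00000016093, which has no symbol, at 0.86. The insulin-like growth factor binding protein IGFBP2, C2orf62, the scaffold protein HOMER2 and the epithelial adhesion molecule EPCAM each reached 0.85, and EPCAM had the same r with PROM1. CASC1, C9orf68 and HOOK2, which links cargo to microtubules, reached 0.84, and CP (ceruloplasmin, a copper-binding oxidase) 0.83. ISL1 and IGFBP2 held in each group alone, with r of 0.90 and 0.96 in Control, 0.86 and 0.85 in IAD and 0.88 and 0.84 in RAO horses. CASC1 was uneven, with 0.44 in Control and 0.97 in RAO horses. Without RAO 1, whose PTN spots were not well above background, the r of the 10 highest was 0.73 to 0.82, with ISL1 first and CASC1 and C9orf68 at ranks 30 and 29. With the normexp correction C2orf77 had an r of 0.71, C2orf62 of 0.67 and ENSECAT00000016093 of 0.57. The mean of ISL1 was 0.28 below Control in IAD and 1.40 below in RAO on the log2 scale, while IGFBP2 was 1.64 and 1.78 below.

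**Figure D4:**
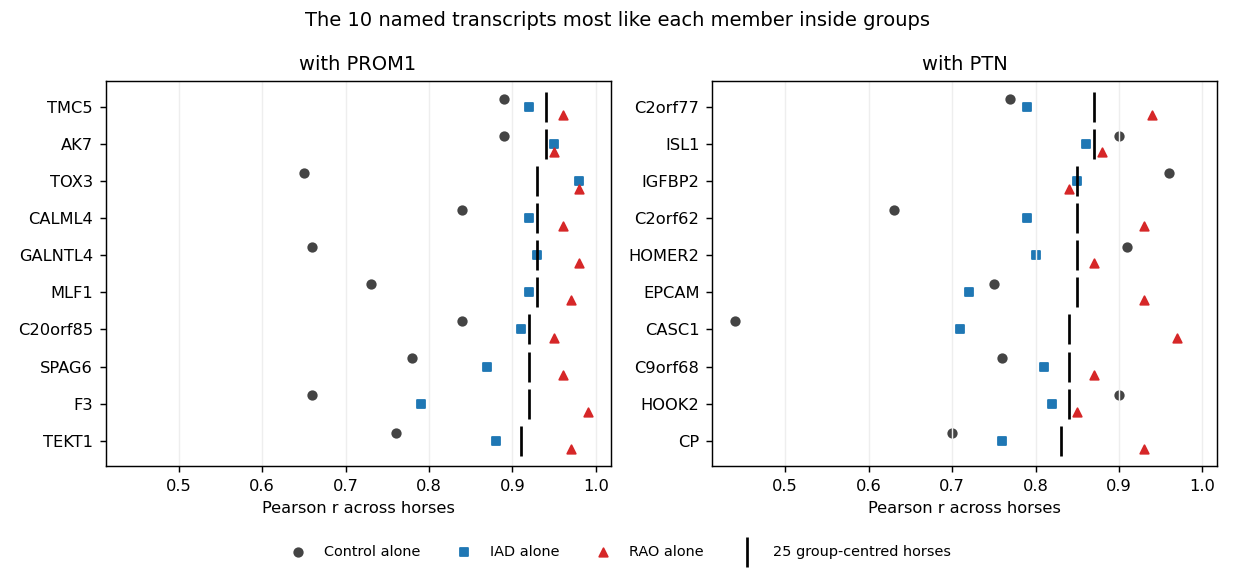
Pearson r across horses with PROM1 (left) and PTN (right) of the 10 transcripts with a symbol that were most like each, in Control, IAD and RAO horses alone (coloured points) and over the 25 group-centred horses (black bars); the horizontal axis starts above 0. For PROM1 the pooled r runs from 0.91 to 0.94, and for PTN from 0.83 to 0.87.

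At the other end, the transcripts that ran most against PROM1 were ENSECAT00000015788 at -0.80, SIGLEC1 at -0.79, ENSECAT00000015400 at -0.73 and 2 transcripts of PLEC at -0.72. SIGLEC1 (sialoadhesin) is a surface lectin of macrophages, and PLEC (plectin) links the filaments of the cytoskeleton. None of the 5 transcripts that ran most against PTN had a symbol, and their r lay between -0.84 and -0.78.

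Lists of genes were set beside the members by their counts and medians. They were drawn up with earlier results of these data known, and their transcripts carry symbols only because the study had called them changed in these horses, so that neither the share called nor the medians of a list are independent evidence. Over all 4930 transcripts the median inside-group r was -0.01 with PROM1 and 0.00 with PTN, and over the 1684 with a symbol it was 0.15 and 0.22. Of all transcripts, 10.6% followed PROM1 and 11.2% followed PTN, while 1.72% and 6.53% ran against them. Among the 1684 with a symbol, 459 followed PROM1 and 433 followed PTN.

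Of the 17 genes of pleiotrophin and midkine signaling, only PTN and PTPRZ1 had a symbol. PTPRZ1, the receptor, was measured by 2 transcripts and was dim. Their mean levels were 5.48 and 5.59 in Control, 4.61 and 4.28 in IAD and 3.04 and 3.23 in RAO horses. Both RAO means and the IAD mean of 4.28 lay under 4.5, the log2 limit of the filter for dim transcripts. Neither transcript was well above background on every array, so the sizes of the differences below are uncertain. Both carry a symbol only because the study had called them changed, so the calls below are no independent evidence. Neither was called in IAD (0.87 and 1.31 lower on the log2 scale, limma adjusted p = 0.273 and 0.131), and both were called lower in RAO (by 2.44 and 2.36, limma adjusted p = 0.0124 and 0.0125). The inside-group r of the receptor was 0.47 with PTN for both transcripts and 0.49 and 0.42 with PROM1, none passing the fit across all transcripts (limma adjusted p = 0.0762 to 0.16). The first transcript was called lower in RAO than in IAD (by 1.58, limma adjusted p = 0.0857), and the second was 1.05 lower (limma adjusted p = 0.187).

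Of the 19 genes of the apical membrane and microvilli, 13 had a symbol, and 11 of their 15 transcripts were tested. Including PROM1, 4 were called lower in IAD and 10 in RAO, against 6.51% and 16.6% of all tested transcripts, and none higher. The median log2 difference was -0.80 in IAD and -1.72 in RAO, against 0.03 and -0.01 over all transcripts and -0.09 and -0.38 over those with a symbol. Besides PROM1, those called in IAD were the scaffold protein PDZK1 (by 1.55), the folate receptor FOLR1 (by 1.67) and the oxidase DUOX1 (by 1.78). TTYH3, a chloride channel, ran the other way without passing, at 0.63 in IAD and 0.77 in RAO. Inside groups, 6 of the 10 transcripts other than PROM1 followed it. The highest were DUOX1 at 0.84, the peptidase DPP4 at 0.83, PDZK1 and FOLR1 at 0.76, the polarity protein PARD6B at 0.70 and the membrane mucin MUC4 at 0.66. EPS8L1 at 0.53, MUC1 at 0.23, the scaffold SLC9A3R1 at 0.20 and TTYH3 at -0.40 did not pass. PTN was followed by 7 of these transcripts, PARD6B at 0.78, DPP4 at 0.77, PDZK1 at 0.74, EPS8L1 at 0.69, DUOX1 at 0.67, FOLR1 at 0.65 and MUC4 at 0.61. MUC1 and SLC9A3R1 were called lower in RAO, by 1.65 and 0.74. EPS8L2, both transcripts of DUOX2 and a further transcript of TTYH3 were too dim for the test.

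The ciliated cell markers were the list closest to PROM1. All 18 transcripts of 16 genes were tested, and 17 of these followed PROM1, with a median r of 0.88 over the list. The same number followed PTN, with a median of 0.75. The highest with PROM1 were AK7 at 0.94 and SPAG6 at 0.92, and the lowest FOXJ1, the master regulator of motile cilia, at 0.74 and RFX2 at 0.37. With PTN the highest were RSPH4A and DNAJB13, both of the axoneme, at 0.82. In this list 14 transcripts were called lower in IAD and 17 in RAO, against 6.51% and 16.6% of all tested transcripts. The median differences were -1.72 and -2.32. Their summed level, as log2 of the summed intensity, ran from 14.24 to 16.38 in Control, from 11.46 to 16.22 in IAD and from 11.04 to 14.57 in RAO horses. Between RAO and IAD, where PTN was 1.95 lower and PROM1 0.13 lower, the differences of the ciliated transcripts ran from -1.24 for RSPH4A to -0.01 for TEKT2 (limma adjusted p = 0.261 to 0.99). The part of these markers in the differences of the members was not tested.

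General epithelial markers followed as well. Of 12 transcripts, 11 followed PROM1 (median r 0.79) and 11 followed PTN (median r 0.75), with KRT18 highest for PROM1, at 0.90 and 0.89 for its transcripts, and EPCAM highest for PTN at 0.85. S100A14 was lowest, at 0.42 with PROM1 and 0.50 with PTN. Of this list 5 were called lower in IAD and 12 in RAO, against 6.51% and 16.6% of all tested transcripts. Their summed level ran from 13.87 to 16.24 in Control, from 12.77 to 15.47 in IAD and from 10.69 to 14.29 in RAO horses. Only 3 secretory transcripts could be tested. The chemokine CXCL17 had an r of 0.80 with PROM1 and 0.78 with PTN, the secretory regulator SPDEF 0.49 and 0.52, and the gel-forming mucin MUC5AC 0.11 and -0.11. Of the alveolar markers, the surfactant protein SFTPD had 0.39 and 0.51 and the lung transcription factor NKX2-1 0.74 and 0.80.

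Leukocyte and fibroblast markers did not follow in the same way. With PROM1 the median r was 0.15 over 7 neutrophil transcripts, of which none passed. With PTN it was 0.37, and IL1R2, the decoy receptor of interleukin 1, passed at 0.55. The neutrophil transcripts were called higher in RAO in 6 of 7 cases and in IAD in none, against 15.9% and 3.23% of all tested transcripts. Of 5 macrophage transcripts, 3 ran against PROM1 (SIGLEC1 at -0.79 and -0.71, CD68 at -0.60) and 2 against PTN (CD68 at -0.61, SIGLEC1 at -0.56), while the scavenger receptor MARCO was at 0.20 and -0.06. The fibroblast genes THY1 and ELN were between -0.24 and 0.08 with either member, and DCN was too dim for the test. Every transcript of the lists was well above background on at least 1 array.

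**Figure D5:**
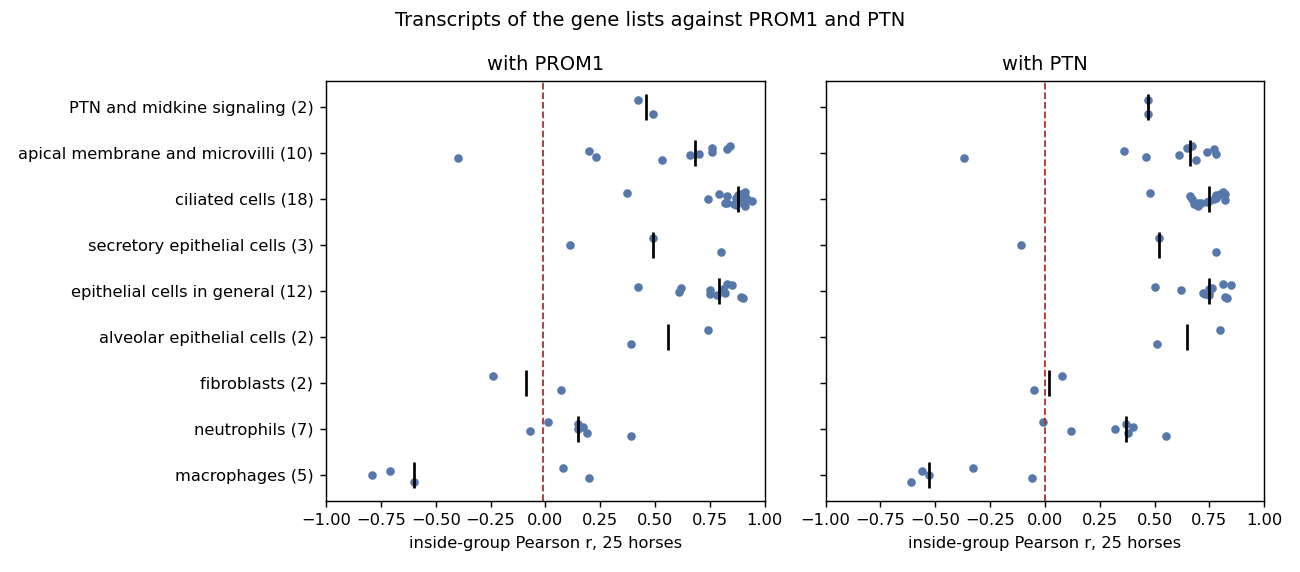
Inside-group Pearson r over 25 horses of each tested transcript of the gene lists (points, number in parentheses, members left out) with PROM1 (left) and PTN (right), with the list median as a black bar and the median of all tested transcripts as a dashed red line. Ciliated cell markers have medians of 0.88 and 0.75, and macrophage markers of -0.60 and -0.53.

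The cell counts of the same lavages were also set beside the members. Inside groups, the epithelial percentage of the study's smears had r = 0.18 with PROM1 (permutation test, adjusted p = 0.717) and 0.02 with PTN (permutation test, adjusted p = 0.926), and Spearman rho 0.23 and 0.10. The neutrophil percentage had r = -0.08 and -0.21, and the share of spots that were well above background 0.39 and 0.30. None of these 6 relations passed (permutation tests over 25 horses, adjusted p = 0.366 to 0.926). Epithelial cells were few or absent in the study's smears of every horse, so a missing relation with their percentage says little. By the study's counts, their mean percentage was higher in IAD and RAO than in Control horses. Without the 2 horses farthest out in the measure, r was 0.02 and -0.01 for the epithelial percentage. With the epithelial percentage as a covariate, PROM1 was 2.28 lower in IAD and 2.67 lower in RAO than in Control horses, and PTN 1.23 and 3.09 lower. In that fit 0 transcripts were called in IAD, against 480 without the covariate, so PROM1 was no longer called there. In RAO 1531 were called, against 1601.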

How the data were processed

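RNA of BAL cells was hybridised in 1 colour (Cy3) to custom arrays of 7238 probes in 2 spots, and each of the 25 arrays was scanned and read by the authors with Feature Extraction (9.5.1.1 per the file headers). The deposited intensity values per spot were background-subtracted processed signals, together with mean and background signals and flags. A deposited table of normalized intensity was used as an alternative. Its correlation with the values used here was 0.9994. Symbols and the cytology percentages came from the study's tables. Per the labels, R 2.11.1 was used upstream.

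Processed signals were put on the log2 scale, normalized together by cyclic loess (limma 3.58.1 in R 4.3.3, span 0.7, 3 iterations) and averaged over spots. Transcripts under 4.5 in at least 19 arrays were left out, which left 4930. Groups followed the labels. Pairs of groups were compared with limma on their own arrays, called at a Benjamini-Hochberg adjusted p under 0.1 and a fold of at least 1.5, the study's thresholds, while the study used a nonparametric test in place of limma. Relations inside groups used group-centred levels, with permutation p exact below 10 horses and from 100000 resamples otherwise. Named were PROM1 and PTN, the 10 highest and 5 lowest by inside-group r, all members of the signaling and apical lists and at most 2 highest and 2 lowest of each marker list. Members and lists were chosen with earlier results of these data known. Normalization, background correction, filter, test, threshold, slide, replicate number, epithelial percentage and each horse were varied. Functions were tested on simulated data.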

Additional observations from a re-analysis of the deposited data

How the results depend on the processing

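The PROM1 difference kept its direction and moved by less than the spread between horses under all alternatives run for IAD against Control (-2.68 to -1.91, or -2.51 to -2.04 with 1 horse left out) and RAO against Control (-2.82 to -2.27, or -2.77 to -1.89). PTN did so in IAD (-1.40 to -0.59, or -1.37 to -0.86) and in RAO (-3.36 to -2.59) except under normexp, at -1.32. Normexp starts from other signals and adds an offset to every spot. Between RAO and IAD, no horse left out brought either member past the threshold (PROM1 -0.47 to 0.41, PTN -2.22 to -1.40), and the fit over all 25 arrays did so for PTN (-1.95). Of the r within IAD, the authors' table brought 0.67 past the threshold, as did leaving out IAD 3, 4 or 6 (range 0.52 to 0.81 over all horses). Within RAO, r was 0.80 under normexp, rho was 0.60, and r was 0.62 without RAO 1 and RAO 7, none past the threshold. Leaving out 1 horse gave 0.65 to 0.93 in RAO, no longer past it without RAO 1 (0.65, adjusted p = 0.184), RAO 3 (0.87) or RAO 8 (0.86, exact permutation tests, adjusted p = 0.0501 for both), and 0.02 to 0.57 in Control. The pooled r passed in all alternatives (0.51 to 0.73, or 0.55 to 0.77). PTN relative to PROM1 passed in all but normexp (-0.85), at -2.08 to -1.62 with 1 horse left out. That comparison was chosen after the values had been seen, so its p-values are no independent evidence.

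The counts behind the background were less stable, and the cause was not tested. For IAD against Control, 480 transcripts became 156 under normexp, 171 with the slide as a block, 208 at an adjusted p under 0.05, and 0 with the epithelial percentage as a covariate (limma, 613 at an unadjusted p under 0.05). Leaving out 1 horse gave 157 to 740, with changes over 1.5-fold for Control 1, 4 and 6 and IAD 2, 5, 7, 9 and 10. For RAO against Control, 1601 became 842 under normexp (1230 to 1693 by horse). For RAO against IAD, 101 became 24 under quantile normalization, 25 by the Wilcoxon test, 265 over all 25 arrays, 37 with the epithelial percentage, 2 at an adjusted p under 0.05, and 0 under the 75th percentile, normexp or the slide block (limma, 978, 848 and 657 at an unadjusted p under 0.05). Leaving out any 1 horse moved it by over 1.5-fold (2 to 554). Called transcripts were lower in 66.9% of cases in IAD and in 82.1% under normexp, and in RAO against IAD in 35.6%, 16.7% under quantile normalization and 24% in the authors' table. Transcripts that followed PROM1 in either direction numbered 609, or 391 at an adjusted p under 0.01 (485 to 716 by horse), and for PTN 874, or 461 and 575 to 994.

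Replicate numbers are shared between groups, but the labels name different horses and same-numbered horses did not deviate together (r over all transcripts from -0.44 to 0.41 in 22 pairs, 10 over 0.1). With the replicate number as a block, 136 transcripts were called in IAD, 1348 in RAO and 0 between RAO and IAD (limma, 637 at an unadjusted p under 0.05), and the pooled r of the members was 0.72.

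The 75th percentile scaling put the median of all transcripts at -0.11 between RAO and IAD, against -0.04, and PTN relative to it was -1.98 and PROM1 0.03. Of the values of single transcripts and lists, 280 of 288 stayed within their interval or on their side of the threshold. Of the 8 others, all r of single transcripts, 7 were with PTN, including 4 of the 5 that ran most against it (-0.62, -0.60 and -0.57 under normexp, -0.48 under the 75th percentile), and 1 was TOX3 with PROM1 (0.79, normexp). Both PTN spots of RAO 1 were not well above background, so its log2 level of 0.61 is uncertain.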
